A study of Mus musculus with 16 samples.

Results

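The 35 genes described here are carried by brain endothelial cells or form the blood-brain barrier, and all 35 were found by name among the 40481 genes of the count table, 34 under the listed symbol and Eltd1 under its newer symbol Adgrl4. They were compared in the brains of 8 mice given adropin and 8 mice given the diluent. Adropin is a secreted peptide, and the synthetic form covered residues 34 to 76. The animals were C57BL mice by the labels, and male C57BL/6J mice in the paper's text, bought at 18 months of age, and 15 per group were injected intraperitoneally once a day with 90 nmol/kg/d of peptide in saline holding bovine albumin, or with that diluent alone. Behaviour was tested after 2 weeks of injections while treatment went on, and the mice were fasted for 6 h before the brain was frozen. The brain region is not stated in the sources used here, and each library is poly-A RNA of whole tissue from 1 of 16 mice, so fewer endothelial cells and less RNA per cell cannot be told apart.

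The endothelium of brain capillaries is sealed by tight junctions and passes few solutes between cells. Nutrients and drugs cross it through transporters, while VEGF and angiopoietin receptors and transcription factors of the ETS and SOX families keep its identity. Nos3, the endothelial nitric oxide synthase, makes the nitric oxide that relaxes the vessel wall, and the comparison asks how these genes stood in the brains of treated mice.

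Libraries held 35185051 to 70314050 counts in adropin mice and 35026503 to 47245785 in saline mice. All 35 genes passed the minimum of more than 1 CPM (counts scaled to the library total) in at least 7 mice, with 87 to 8538 counts per gene and mouse. Together they took 0.0722% to 0.111% of the counts of a library. Levels are given below as CPM scaled by TMM, a size factor that balances the libraries. In these units the 35 genes summed to 716, 917 and 1155 (lowest, median and highest of 8 adropin mice) and to 795, 889 and 973 in saline mice. A list of 7 neuronal markers summed to 7079 to 8590 in all mice, and 6 astrocyte markers to 1946 to 3861, so the markers that define the labelled tissue were present in every mouse. Per kb of exon the most abundant genes, over all mice, were Cldn5 (29.2 CPM per kb), Slc2a1 (29.1) and Ly6c1 (19.2), and the least abundant was Flt4 (0.58).

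No gene of the 35 had a fitted change above a fold of 1.5 in either direction. At an unadjusted p below 0.05, edgeR's quasi-likelihood test placed 1 gene higher in adropin mice, Vwf, and 1 lower, Mfsd2a. Over the 14949 genes tested, 1.86% were higher and 2.13% lower at that p, and 0.114% were higher and 0.308% lower when a fold above 1.5 was also asked for, so 1 gene in 35 in each direction lay near the background. In fits that left out 1 mouse, the shares over all genes tested ran from 1.08% to 6.16% higher and from 1.28% to 3.51% lower at that p, both largest without adropin mouse 4_3. The share higher was next largest without saline mouse 5_3 (4.23%), adropin mouse 3_3 (3.26%) and saline mouse 7_1 (3.19%). The 35 genes had 22 log2 fold changes above 0 and 13 below, with a median of 0.05 (adropin minus saline), where the median over all genes tested was -0.0019 and 49.2% lay above 0. The 95% interval of the change lay within a fold of 1.5 either way for 34 of the 35, Vwf being the exception. The smallest adjusted p among the 35 genes was 0.874 (edgeR, Benjamini-Hochberg over all genes tested), and 0 genes of the whole table had an adjusted p below 0.05, while 278 were higher and 318 lower at an unadjusted p below 0.05. DESeq2 gave 5 genes at an adjusted p below 0.05, none of them among the 35, and limma-voom gave 0. With edgeR there were 5 with 1 surrogate variable, 2 with a term for the second number of the mouse label and 3 without adropin mouse 5_5.

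**Figure D1:**
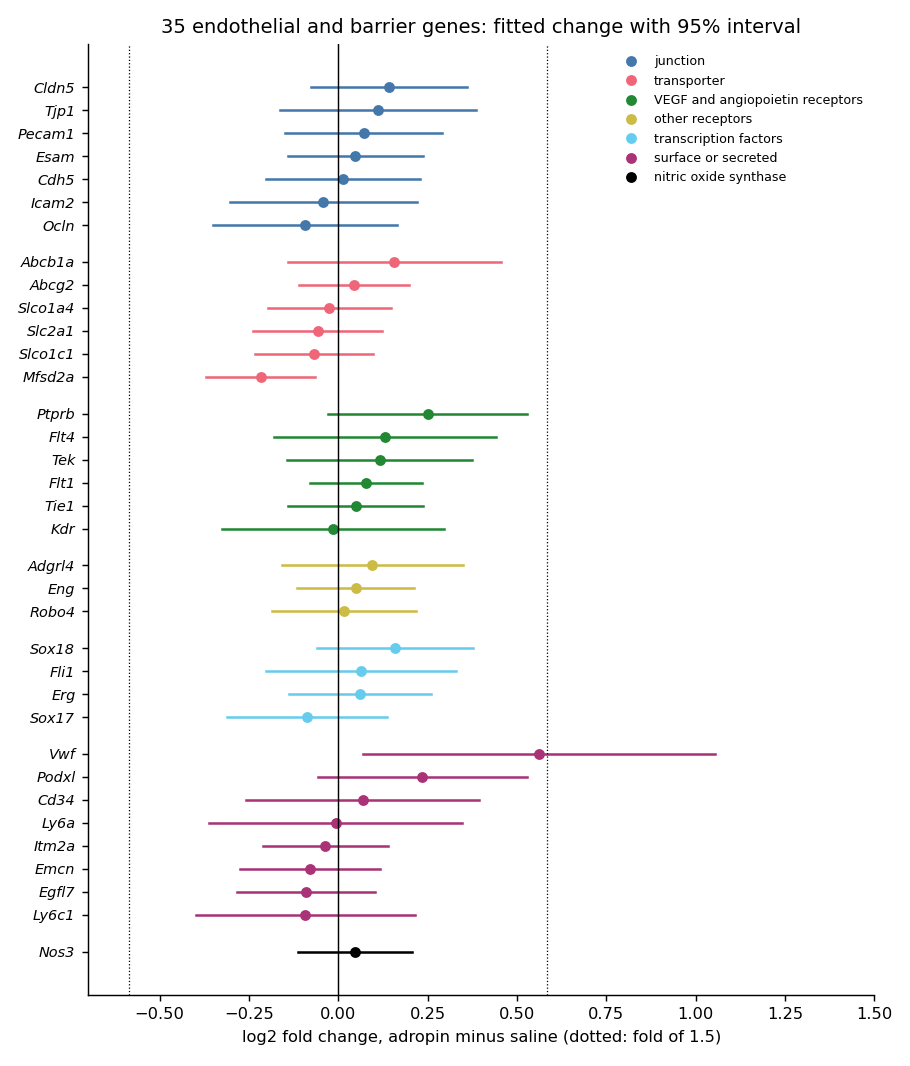
Fitted log2 fold change (adropin minus saline, horizontal axis) of the 35 genes grouped by role, with the 95% interval as a line and dotted lines at a fold of 1.5. Only the intervals of Mfsd2a (-0.22) and Vwf (0.56) leave 0 to one side, and only that of Vwf reaches past a dotted line.

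The starts of 3 genes are shown because they sit at the ends of the patterns below: Mfsd2a, with the smallest p of the 35, and Tie1 and Flt1, which followed the other members most closely of those with a promoter in the table (RefSeq, GRCm38.p6). Each sequence runs 5′ to 3′ on the gene's strand, from 250 bases before to 50 bases after the start, at chr4:122961139-122961438 on the minus strand for Mfsd2a, chr4:118489800-118490099 on the minus strand for Tie1 and chr5:147725962-147726261 on the minus strand for Flt1. Capitals mark matches, on either strand, to AGGAAG (a core bound by ETS factors) or CCACCC (by KLF factors). AACAAT, for SOX factors, has no match in the 3, and no matches shown overlap.
Mfsd2a: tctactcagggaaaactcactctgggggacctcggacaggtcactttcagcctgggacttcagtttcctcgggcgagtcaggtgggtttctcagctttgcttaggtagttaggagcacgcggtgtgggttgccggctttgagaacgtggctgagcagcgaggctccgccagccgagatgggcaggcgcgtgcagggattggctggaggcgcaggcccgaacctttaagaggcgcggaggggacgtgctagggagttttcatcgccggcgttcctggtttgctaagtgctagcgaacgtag
Tie1: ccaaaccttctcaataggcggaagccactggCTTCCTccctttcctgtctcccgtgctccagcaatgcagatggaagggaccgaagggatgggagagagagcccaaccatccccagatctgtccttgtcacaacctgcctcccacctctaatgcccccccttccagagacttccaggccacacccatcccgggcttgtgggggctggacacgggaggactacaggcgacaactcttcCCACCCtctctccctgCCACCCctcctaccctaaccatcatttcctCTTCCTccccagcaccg
Flt1: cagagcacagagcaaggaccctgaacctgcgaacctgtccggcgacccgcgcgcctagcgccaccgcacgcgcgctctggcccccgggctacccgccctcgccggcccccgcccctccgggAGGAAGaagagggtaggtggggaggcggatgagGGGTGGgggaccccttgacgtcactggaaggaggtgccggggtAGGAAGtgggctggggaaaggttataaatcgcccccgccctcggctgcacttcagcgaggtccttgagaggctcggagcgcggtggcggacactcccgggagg
Tie1 held 2 ETS and 2 KLF matches, Flt1 held 2 ETS and 1 KLF match, and Mfsd2a held none of either. Of 31 promoters found for 23 of the 35 genes, 18 (58.1%) held AGGAAG, 15 (48.4%) held CCACCC and 4 (12.9%) held AACAAT, beside 35.4%, 31.5% and 10.7% of the 32851 mouse promoters of that length. These are counts of letters, with no measure of binding in these data. The motifs were chosen after the expression values were seen.

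Transporters were the group with the lower of the 2 genes. Mfsd2a, which carries lysophosphatidylcholine with docosahexaenoic acid into the brain and restrains transcytosis in its endothelium, had 11.6, 13.8 and 14.4 CPM (lowest, median and highest) in adropin mice and 12.3, 15.9 and 17.4 CPM in saline mice. All 8 adropin mice lay below the saline median, and 7 of 8 saline mice lay above every adropin mouse. The exception was saline mouse 8_3, which at 12.3 CPM was the lowest of its group. The gene (chromosome 4, 122946850 to 122961188, minus strand, GRCm38) shares no exon bases with another gene. Its log2 fold change was -0.22 ± 0.07 (SE), a ratio of 0.86 with a 95% interval of 0.774 to 0.957 (edgeR unadjusted p = 0.00799, adjusted p = 0.874). A two-sided exact permutation test of log2 CPM over 12870 divisions of the mice gave p = 0.0101.

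The mice carry a pair of numbers as labels, whose meaning is not given in the sources used here, and 3 first numbers occur in both groups. In a fit with a term for first label numbers, only mice with these 3 numbers bear on the group difference. Within these numbers, Mfsd2a was lower in adropin mice by a log2 difference of -0.30, -0.25 and -0.29 for 2, 5 and 7 (8 mice in all). When mouse 8_3 was left out the log2 fold change was -0.26, and over the 16 fits that each left out 1 mouse the unadjusted p stayed at or below 0.0225. In a fit with a term for second label numbers it was 0.0547 (edgeR, log2 fold change -0.18). The other transporters did not pass. Slc2a1, the glucose carrier GLUT1, had 75.5, 96.5 and 127 CPM in adropin mice and 88.8, 108 and 113 CPM in saline mice, overlapping groups with a log2 fold change of -0.06. The efflux pumps Abcb1a (P-glycoprotein) and Abcg2 had values of 0.16 and 0.04, and the organic anion carriers Slco1a4 and Slco1c1, of which the latter takes up thyroid hormone, had -0.03 and -0.07. Of 50-base words in the longest transcript of Abcb1a, 18.6% also occur in Abcb1b, Abcb4 or an antisense gene. Reads were 150 bases long, and those that aligned to more than 1 place were not counted.

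Among genes on the cell surface or secreted, Vwf was the higher one. Vwf encodes von Willebrand factor, the adhesive protein stored in endothelial granules, and had 15.3, 28.9 and 78.4 CPM in adropin mice against 17.5, 24.6 and 30.9 CPM in saline mice. Of the 8 adropin mice 7 lay above the saline median and 3 lay above every saline mouse, while mouse 3_3, at 15.3 CPM, lay below every one. Adropin mouse 1_3 stood apart at 78.4 CPM, the next being mouse 7_4 at 44.1 CPM. The log2 fold change was 0.56 ± 0.23 (SE), a ratio of 1.48 with a 95% interval of 1.05 to 2.08 (edgeR unadjusted p = 0.0279, adjusted p = 0.874). The exact permutation test of log2 CPM gave p = 0.11. Without mouse 1_3 the log2 fold change was 0.29 (edgeR unadjusted p = 0.093), without mouse 7_4 it was 0.51 (edgeR unadjusted p = 0.0521) and without saline mouse 5_4 it was 0.51 (edgeR unadjusted p = 0.052). Vwf passed in the other 13 of 16 such fits, in 6 of them also past the fold of 1.5, and reached 0.68 without mouse 3_3 (edgeR unadjusted p = 0.00396). Within the first label numbers 2, 5 and 7 the log2 difference was -0.16, 0.51 and 0.94. In fits with a term for first or second label numbers the log2 fold change of Vwf was 0.36 and 0.60 (edgeR unadjusted p = 0.0765 and 0.0511).

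**Figure D2:**
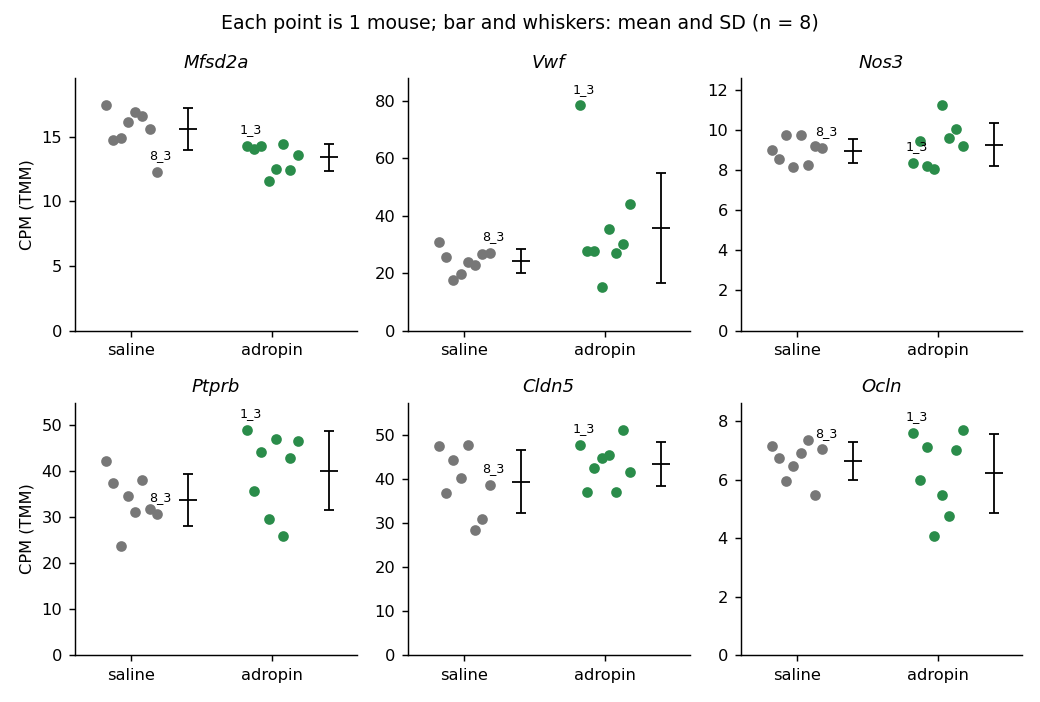
CPM (TMM-scaled, vertical axes from 0) of 6 genes in each of 16 mice, with the mean and SD of each group of 8. For Mfsd2a 7 of 8 saline points lie above all adropin points, Vwf has adropin mouse 1_3 at 78.4 CPM, and the groups overlap for Nos3, Ptprb, Cldn5 and Ocln.

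Mouse 1_3 was also the highest of all 16 mice for Selp, Sele, Lcn2, Icam1 and Vcam1, which activated endothelium makes. The selectin Selp, which is stored in the same granules as Vwf, had 1.69 CPM in this mouse and at most 0.0573 CPM in the other adropin mice, and Sele had 1.30 CPM and at most 0.115 CPM. Lcn2, an acute-phase protein, had 18.8 CPM and at most 1.26 CPM in the other adropin mice. The adhesion molecules Icam1 and Vcam1 had 4.95 and 25.0 CPM in this mouse, where the highest saline mouse had 2.72 and 19.1 CPM. The neutrophil gene S100a9 was at 4.94 CPM in this mouse against at most 0.63 CPM in the other adropin mice. The list of 8 activation genes also holds Ackr1, Ccl2 and Il6, for which the place of this mouse is not given here. Of the 8 genes 3 were tested (Icam1, Vcam1 and Ackr1), and 0 of these passed at an unadjusted p below 0.05 (edgeR). Their median log2 fold change was 0.09, and -0.0086 without mouse 1_3. The part of these genes in the Vwf result was not tested, beyond the values without mouse 1_3 above.

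**Figure D3:**
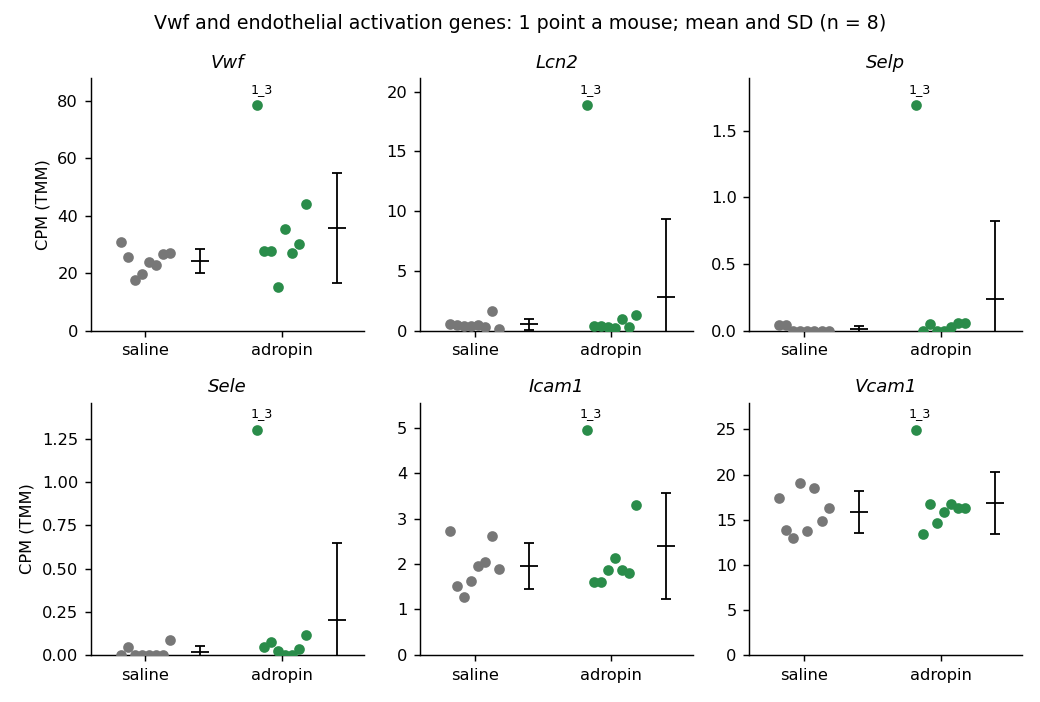
CPM (TMM-scaled, vertical axes from 0) of Vwf and 5 endothelial activation genes in each mouse, with the mean and SD of each group of 8. Mouse 1_3 is the highest point in all 6 panels, at 78.4 CPM for Vwf and 18.8 CPM for Lcn2.

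Podxl, a sialomucin of the luminal membrane, had a log2 fold change of 0.24 and an unadjusted p of 0.108 (edgeR). Without mouse 1_3 its log2 fold change was 0.12, and without mouse 3_3 or mouse 4_3 it was 0.31 and 0.30, where it passed (edgeR unadjusted p = 0.0292 and 0.0419). With a term for first label numbers it was 0.11 (edgeR unadjusted p = 0.479). The sialomucins Cd34 and Emcn had values of 0.07 and -0.08, and the membrane protein Itm2a had -0.04. Egfl7, a secreted vessel protein that hosts a microRNA, had -0.09, and 11.2% of its exon bases overlap other genes. Ly6c1 had 23.9, 29.6 and 46.2 CPM in adropin mice and 23.4, 33.6 and 43.2 CPM in saline mice, with a log2 fold change of -0.09. Its neighbour Ly6a, known as Sca-1, had -0.01. Of 50-base words in the longest transcript of Ly6c1, 36.7% occur in Ly6a or Ly6c2 as well. For the longest transcript of Ly6a the share found in other genes is 10%.

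The 7 junction genes held none that passed. Cldn5, the claudin that makes up most of the tight junction, had 36.9, 43.5 and 51.1 CPM in adropin mice and 28.4, 39.4 and 47.7 CPM in saline mice. The groups overlapped, with 1 adropin mouse above every saline mouse, and the log2 fold change was 0.14 ± 0.10 (SE) (edgeR unadjusted p = 0.187). Ocln, the tight junction protein occludin, had the second lowest change of the 35, with 4.07, 6.50 and 7.71 CPM in adropin mice and 5.47, 6.84 and 7.35 CPM in saline mice. The adropin mice spread past the saline mice at both ends, 2 below and 2 above, and the log2 fold change was -0.09 ± 0.12 (SE) (edgeR unadjusted p = 0.454). The scaffold Tjp1 (ZO-1) had 0.11 and the adherens junction cadherin Cdh5 had 0.01. The adhesion proteins Pecam1, Esam and Icam2 had 0.07, 0.05 and -0.04.

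Of the VEGF and angiopoietin receptors and their phosphatase, 5 of 6 had values above 0 and none passed. Ptprb, the endothelial phosphatase that dampens Tie2, had the second highest change of the 35. It had 25.8, 43.5 and 48.9 CPM in adropin mice and 23.7, 33.1 and 42.2 CPM in saline mice, with 5 adropin mice above every saline mouse. The log2 fold change was 0.25 ± 0.13 (SE) (edgeR unadjusted p = 0.0766, exact permutation p = 0.14). It passed when saline mouse 2_3 (0.30, edgeR unadjusted p = 0.0388) or adropin mouse 3_3 (0.31, edgeR unadjusted p = 0.0292) or 4_3 (0.33, edgeR unadjusted p = 0.0129) was left out, fits in which 1.55%, 3.26% and 6.16% of all genes tested were higher. With 1 surrogate variable in the fit the log2 fold change of Ptprb was 0.094 (edgeR unadjusted p = 0.282). The angiopoietin receptor Tek (Tie2) had 0.12 and its partner Tie1 had 0.05. Of the VEGF receptors, Flt1 had 0.08, Flt4 had 0.13 and Kdr, the main signalling receptor, had -0.01. The TGF-beta co-receptor Eng had 0.05, Robo4 had 0.02 and the adhesion receptor Adgrl4 had 0.10.

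The transcription factors likewise held none that passed. The SOX factors Sox18 and Sox17 had log2 fold changes of 0.16 (edgeR unadjusted p = 0.145) and -0.09. The ETS factors Erg and Fli1 both had 0.06. An antisense gene overlaps 16.8% of the exon bases of Sox17.

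For Nos3 no difference larger than the spread between mice was found. It had 8.06, 9.32 and 11.2 CPM in adropin mice and 8.17, 9.05 and 9.74 CPM in saline mice, with means of 9.26 ± 1.07 and 8.97 ± 0.60 CPM (SD, n = 8 each). The groups overlapped, with 2 adropin mice above and 1 below all saline mice. The log2 fold change was 0.05 ± 0.08 (SE), a ratio of 1.03 with a 95% interval of 0.925 to 1.15 (edgeR unadjusted p = 0.543, adjusted p = 0.898). The exact permutation test of log2 CPM gave p = 0.551. Within the first label numbers 2, 5 and 7 the log2 difference was -0.03, 0.14 and 0.15. The gene lies on chromosome 5 (24364810 to 24384474, plus strand, GRCm38), and 32.3% of its exon bases overlap Atg9b or Gm15587 on the other strand. The strand setting of the counting is not given in the sources used here, so it is not known whether reads over the overlap were assigned by strand or left out as ambiguous. Atg9b itself had a log2 fold change of 0.02 (edgeR unadjusted p = 0.901).

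An endothelial score was calculated per mouse as the mean z-score of log2 CPM over the 35 genes, without a test because the genes were chosen with results known. It was 0.053 ± 0.766 in adropin mice and -0.053 ± 0.455 in saline mice (SD, n = 8 each), a difference of 0.106 that is small beside either SD. Both ends of the range were adropin mice, with mouse 1_3 at 1.14 and mouse 3_3 at -1.20, and the saline mice lay from -0.53 to 0.81. Mouse 1_3 was the highest of all 16 mice for 16 of the 35 genes, and mouse 3_3 was the lowest for 11. Mouse 1_3 also had the largest library. Without mouse 1_3 the difference was -0.015, without mouse 7_4 it was 0.00038 and without mouse 3_3 it was 0.331.

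Members differed in how closely they followed the score. Over 16 mice, after the group means were taken out, Tie1 (r = 0.88), Vwf (0.86) and Flt1 (0.86) had the highest correlation with the mean of the other 34 genes, and Egfl7 (-0.33), Nos3 (0.19) and Mfsd2a (0.27) the lowest. A value of at least 0.6 was reached by 21 genes, and by 13 when mice 1_3 and 3_3, the ends of the score, were left out. The median over 595 pairs of genes was 0.42, and 0.27 without these mice. All these points share libraries and depth, and no test was made. The 21 genes had a median exon length of 5186 bp and the other 14 a median of 2916 bp, while the median GC content of the longest transcript was 50.5% and 51.1%. Ly6c1 and Ly6a had r = 0.96 with each other.

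**Figure D4:**
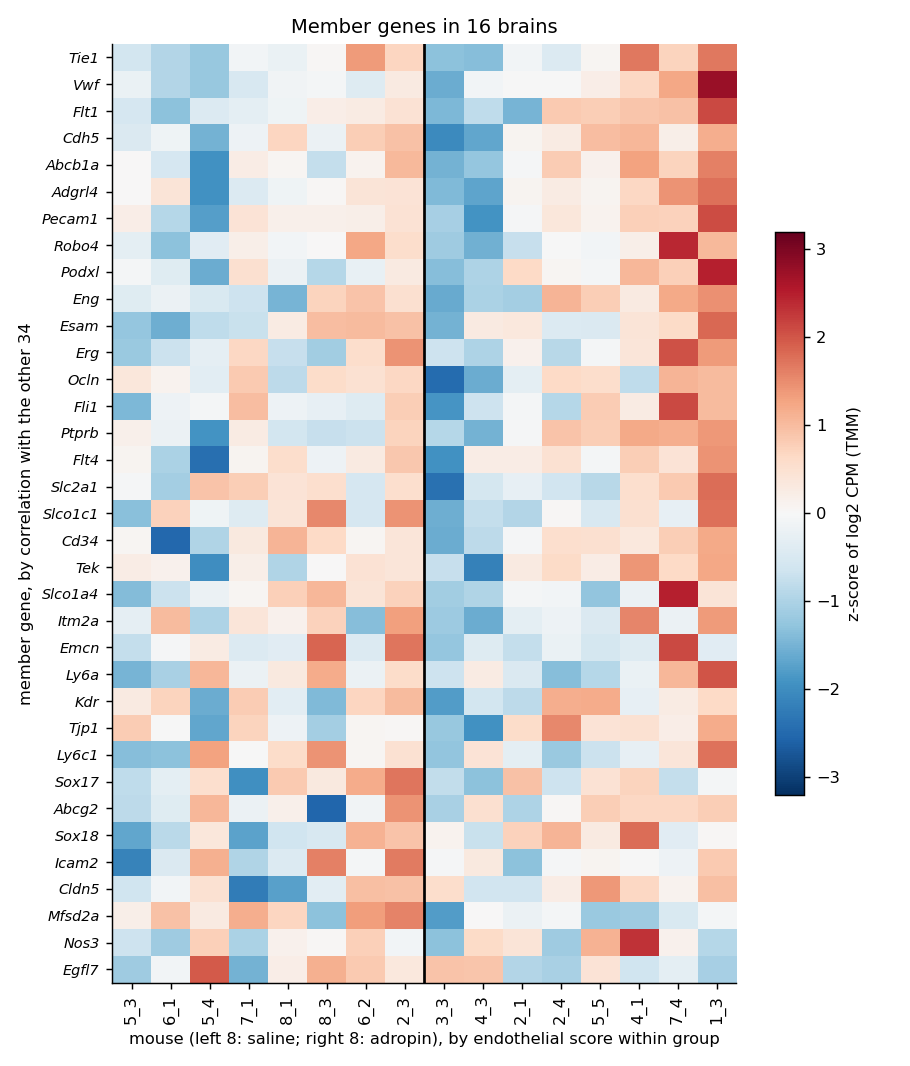
Z-scores of log2 CPM (colour) of the 35 genes (rows, by correlation with the other 34) in 16 mice (columns, saline left of the line and adropin right, by score). Mice 3_3 and 1_3 form the lowest and highest columns of the adropin group, at scores of -1.20 and 1.14, and Nos3 and Mfsd2a, in the bottom rows with Egfl7, are at their lowest in mouse 3_3 but not at their highest in mouse 1_3.

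Nos3 followed the score less than most members. Its z-score minus the score of the other 34 genes ran from -2.12 in mouse 1_3 to 1.84 in mouse 4_1, both given adropin, and from -0.93 to 1.24 in saline mice. In mouse 1_3, where the other genes had a mean z-score of 1.20, that of Nos3 was -0.92. Of the other members, Nos3 correlated most with the transcription factors Sox17 (r = 0.56 over 16 mice) and Sox18 (0.49), which had r = 0.81 with each other. Leaving Nos3 out of the score changed the difference between the groups from 0.106 to 0.0999.

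**Figure D5:**
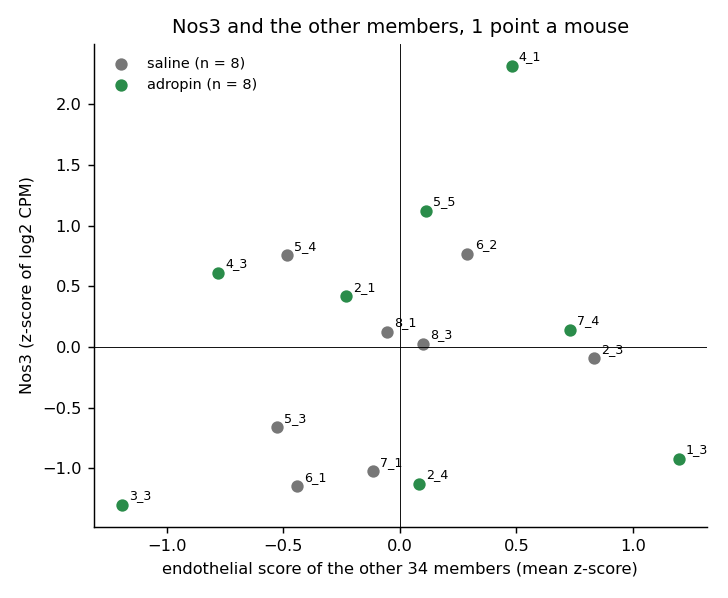
Z-score of Nos3 (vertical axis) against the score of the other 34 genes (horizontal axis), 1 point per mouse, coloured by group. Mouse 1_3 lies at 1.20 on the horizontal and -0.92 on the vertical axis, mouse 4_1 has the highest Nos3 at 2.32, and the groups overlap on both axes.

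Other lists of the vessel wall were read beside the 35 genes. Of 29 further barrier genes tested 18 had values above 0, with a median log2 fold change of 0.04. At an unadjusted p below 0.05 (edgeR), where 2.13% of all genes tested were lower, 2 of the 29 were lower. These were Klf4 and Klf2, transcription factors that endothelium makes under laminar flow and that other brain cells make too. Klf4 had 8.08, 9.08 and 10.4 CPM in adropin mice and 9.41, 11.8 and 13.5 CPM in saline mice, with all 8 adropin mice below the saline median. Its log2 fold change was -0.33 ± 0.09 (SE) (edgeR unadjusted p = 0.00146, adjusted p = 0.874). Klf2 had 8.19, 11.1 and 17.9 CPM against 13.2, 14.5 and 18.9 CPM, a log2 fold change of -0.39 ± 0.14 (SE) (edgeR unadjusted p = 0.0105). Both passed in all 16 fits that left out 1 mouse and in all 11 other alternatives. Neither has an adjusted p that passes. Of the other genes of this list, 2 were higher without adropin mouse 3_3 or 4_3, and 1 was higher without saline mouse 5_3 or 6_2 or with a term for second label numbers. Over all genes tested those fits had 3.26%, 6.16%, 4.23%, 1.35% and 0.977% higher. The median of the list was 0.0049 without saline mouse 5_4 and 0.0078 without adropin mouse 7_4.

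Of 15 VEGF and angiopoietin pathway genes tested, 8 had values above 0. At an unadjusted p below 0.05 (edgeR), where 1.86% of all genes tested were higher, 1 of the 15 was higher. This was the semaphorin receptor Plxnd1 (log2 fold change 0.32, edgeR unadjusted p = 0.033). It had 124, 166 and 181 CPM in adropin mice and 75.5, 124 and 191 CPM in saline mice, overlapping groups, and it passed in 9 of the 16 fits that left out 1 mouse, but not without adropin mouse 1_3, 2_4 or 4_1 or saline mouse 2_3, 5_4, 8_1 or 8_3. With a term for first label numbers it had 0.32 (edgeR unadjusted p = 0.132). The list then held 0 genes higher and 2 lower, 1 of them past the fold of 1.5. In that fit 0.883% of all genes tested were higher and 1.3% lower. With a term for second label numbers Plxnd1 passed (0.37, edgeR unadjusted p = 0.0254), and with 1 surrogate variable no gene of the list was higher. Without adropin mouse 4_3, 2 genes of the list were lower, as were 3.51% of all genes tested. None passed of 13 genes of the Wnt signal that induces the barrier (median 0.04, Wnt7a -0.18) or of 11 genes around nitric oxide (median 0.0017). The Wnt list had a median of -0.028 with 1 surrogate variable, and the nitric oxide list held 3 genes higher without adropin mouse 4_3 and 1 without adropin mouse 3_3 or saline mouse 5_3, 6_1 or 7_1, where 6.16%, 3.26%, 4.23%, 2.33% and 3.19% of all genes tested were higher. Of the nitric oxide genes Gucy1a1 and Gucy1a2, subunits of the nitric oxide receptor guanylate cyclase, had 0.18 and 0.51 (edgeR unadjusted p = 0.0771 and 0.0805). Arterial markers (7 tested, median 0.11) and venous markers (4 tested, median -0.01) held none that passed. Without adropin mouse 3_3, 1 venous marker was higher, as were 3.26% of all genes tested. The venous median was -0.16 without adropin mouse 1_3 and -0.27 with a term for first label numbers.

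Cells that touch the endothelium were checked with their markers. Of 10 pericyte markers 8 had values above 0. Lower at an unadjusted p below 0.05 (edgeR) was 1 of the 10, as were 2.13% of all genes tested. The lower marker was Rgs5, a regulator of G protein signalling (log2 fold change -0.16, edgeR unadjusted p = 0.0345). It passed in 8 of the 16 fits that left out 1 mouse. It did not pass without adropin mouse 1_3, 2_1, 3_3, 4_3 or 5_5 or saline mouse 5_3, 7_1 or 8_3. With a term for first or second label numbers Rgs5 had -0.085 and -0.17 and did not pass either (edgeR unadjusted p = 0.434 and 0.0678). Another pericyte marker was higher without adropin mouse 3_3 or 4_3 or saline mouse 5_3. In those fits 3.26%, 6.16% and 4.23% of all genes tested were higher. The 7 smooth muscle markers all had values below 0 (median -0.24) and none passed; their summed level was 55.9 to 95.1 CPM in adropin mice and 56.1 to 142 CPM in saline mice. Without saline mouse 8_3 their median was -0.12 and 6 lay below 0. Lower at an unadjusted p below 0.05 (edgeR) were 4 of them without saline mouse 6_1, 3 without adropin mouse 4_3, 2 without adropin mouse 7_4 (median -0.40) and 1 without saline mouse 6_2, fits in which 2.71%, 3.51%, 2.24% and 2.05% of all genes tested were lower. Of 6 microglial markers 1 was higher, Cx3cr1, the fractalkine receptor (0.18, edgeR unadjusted p = 0.0225), as were 1.86% of all genes tested. Cx3cr1 passed in 14 of the 16 fits but not without saline mouse 6_2 or adropin mouse 7_4. With a term for second label numbers Cx3cr1 had 0.10 (edgeR unadjusted p = 0.174). Without adropin mouse 4_3 or saline mouse 5_3, 2 microglial markers were higher, as were 6.16% and 4.23% of all genes tested. The 8 fibroblast markers, 6 astrocyte markers and 7 neuronal markers held none that passed, with medians of 0.07, 0.05 and 0.05. With a term for first label numbers 7 of the 8 fibroblast markers lay below 0 (median -0.17), and with 1 surrogate variable 4 of the 6 astrocyte markers did (median -0.023). A fibroblast marker was higher without saline mouse 2_3 or adropin mouse 7_4, where 1.55% and 1.83% of all genes tested were higher. A neuronal marker was higher without adropin mouse 4_3 or saline mouse 5_3 or 7_1. In those fits 6.16%, 4.23% and 3.19% of all genes tested were higher. The 6 oligodendrocyte markers all had values below 0 (median -0.19), with none passing, and all above 0 in the fit with a term for first label numbers (median 0.07). Without adropin mouse 7_4, 2 of them were lower (median -0.32), as were 2.24% of all genes tested.

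Markers of the choroid plexus, an epithelium over fenestrated vessels, were far higher in 1 saline brain than in the others. Over all genes tested 0.308% were lower past the fold of 1.5 at an unadjusted p below 0.05 (edgeR). All 5 choroid plexus markers tested were lower in adropin mice at that cut-off, with a median log2 fold change of -1.31. Their sum was 11.7, 19.2 and 74.6 CPM in adropin mice and 13.2, 21.6 and 2480 CPM in saline mice, so that the medians lay close together. The count was 4 with DESeq2 and 2 with limma-voom, limma-trend or 1 surrogate variable. Without mouse 8_3 it was 2 and the median -0.67. The fit with a term for first label numbers, where mouse 8_3 does not bear on the group difference, gave a count of 0. Mouse 8_3 was also the saline mouse with the lowest Mfsd2a, whose difference was larger without it. The part of choroid plexus in the levels of the 35 genes was not tested otherwise.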

How the data were processed

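Per the labels and the paper's methods, the authors aligned reads of poly-A RNA from 16 mouse brains with STAR to the Ensembl release 76 assembly and deposited raw featureCounts counts per gene, made from reads that aligned uniquely and without ambiguity. The deposited CPM are those counts scaled to the total of each library, and 276 repeated entries of 40757 were dropped here. From the counts, TMM factors were calculated over all genes, genes above 1 CPM in at least 7 mice were kept, 355 ribosomal RNA genes were left out, and 14949 genes were tested with edgeR 4.0.16 (R 4.3.3). Nos3 and named members were also tested by two-sided exact permutation. The prior count for log2 values was 2. Exon lengths, overlaps and shared 50-base words came from the GENCODE annotation on GRCm38.

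The members and all lists were chosen with earlier results of these data known. Every member is named, with values by mouse for Nos3, members with an unadjusted p below 0.05, the 2 highest and 2 lowest changes and the 3 most abundant per kb. Alternatives used limma 3.58.1 (voom, and trend on log2 of deposited CPM plus 1), DESeq2 1.42.0, sva 3.50.0, other size factors and filters, label numbers as blocks, and each mouse left out. Library totals of 35026503 to 70314050 counts limit precision mainly for genes near 1 CPM. The p-values set the group difference against the spread between these mice. The test was also run on simulated counts with 200 genes changed, the outcome of which is not given here.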

Additional observations from a re-analysis of the deposited data

Results flagged for a closer look

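The most extreme mouse of a group was set against the other 7 by its distance to the closest mouse as a share of the whole range. Of 94 groups examined 9 stood apart, where chance gives 4.7, and 5 of the 9 came from adropin mouse 1_3. Among the 70 groups of member genes 4 stood apart, where chance gives 3.5, and 1 of these came from mouse 1_3. The rest were groups of the score and of genes set beside the members, some chosen after their values were seen. In mouse 1_3 Vwf was 78.4 CPM (nearest 44.1), Lcn2 18.8 CPM (nearest 1.26), Sele 1.30 CPM (nearest 0.115), Selp 1.69 CPM (nearest 0.0573) and S100a9 4.94 CPM (nearest 0.63).

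Adropin mouse 7_4 had the highest Slco1a4, 36.7 CPM (nearest 29.1), and the highest Emcn, 7.28 CPM (nearest 5.55). Saline mouse 5_4 had the lowest Adgrl4 of its group, 9.50 CPM (nearest 12.4), and saline mouse 8_1 the highest Lcn2, 1.64 CPM (nearest 0.541). No cause was tested for these values.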

How the results depend on the processing

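Nos3 stayed above 0 and did not pass under any of 27 alternatives (log2 fold change 0.0093 to 0.0812). The count of members lower at an unadjusted p below 0.05 was 1 except with a block for second label numbers, where it was 0 (Mfsd2a -0.18, edgeR unadjusted p = 0.0547). The count higher was 0 with limma-voom, limma-trend, 1 surrogate variable, either block, and without mice 1_3 and 8_3 together, and ran from 0 to 3 over the fits that left out 1 mouse. It was 3 without mouse 3_3 or 4_3, where 3.26% and 6.16% of all genes tested were higher. The blocked values of Vwf were 0.36 and 0.60 (edgeR unadjusted p = 0.0765 and 0.0511) and that of Mfsd2a with the first number was -0.28. Whether label numbers pair the mice is not known, and the block for first numbers draws the group difference from only 8 of the mice. The count higher past the fold of 1.5 was 0, and 0 to 1 with a mouse left out. The score difference ran from -0.015 to 0.331 with a mouse left out and from -0.027 to 0.106 otherwise, less than the spread between mice.

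Of 945 member values under alternatives 59 had the other sign, in 21 genes, none with an unadjusted p below 0.05 and the largest log2 fold change at 0.094. The cause was not tested. The log2 fold changes of these genes were as follows. With 1 surrogate variable, Tjp1 -0.0662, Cdh5 -0.0823, Pecam1 -0.032, Icam2 0.0463, Abcb1a -0.00036, Tek -0.0165, Tie1 -0.00313, Robo4 -0.0248, Adgrl4 -0.0217, Ly6c1 0.00329, Ly6a 0.094, Cd34 -0.0321, Egfl7 0.0143. With a block for first label numbers, Ocln 0.0223, Abcg2 -0.034, Slco1a4 0.0286, Kdr 0.0722, Erg -0.00867. With library size only, Cdh5 -0.0137, Robo4 -0.00953. With limma-trend, Cdh5 -0.0186, Robo4 -0.0142. Without mice 1_3 and 8_3 together (chosen after seeing the data), Cdh5 -0.0301, Abcg2 -0.0105, Robo4 -0.0109. With 1 mouse left out the ranges were Cd34 -0.0251 to 0.15, Cdh5 -0.0278 to 0.0767, Fli1 -0.0145 to 0.13, Icam2 -0.0936 to 0.0132, Itm2a -0.0732 to 0.00324, Kdr -0.0772 to 0.0613, Ly6a -0.13 to 0.0611, Robo4 -0.0532 to 0.0608, Slc2a1 -0.11 to 0.000205, Slco1a4 -0.0927 to 0.00976.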

Other observations

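Blood cells trapped in vessels were read through their own markers. The 5 erythroid markers summed to 96.9 to 686 CPM in adropin mice and to 143 to 525 CPM in saline mice, and 4 of them had log2 fold changes below 0, with none at an unadjusted p below 0.05 (edgeR). The erythroid median was -0.15, from -0.42 without adropin mouse 2_4 to -0.0016 without adropin mouse 4_1. All 5 lay above 0 with a term for first label numbers (median 0.21), with 1 surrogate variable (0.094) and without mice 1_3 and 8_3 together (0.063). Of 8 leukocyte markers 3 passed the count minimum, all with values above 0 (median 0.21), the macrophage lysozyme Lyz2 having 0.39 (edgeR unadjusted p = 0.0621). The leukocyte median was 0.089 without adropin mouse 1_3, 0.32 without saline mouse 7_1 and 0.049 with 1 surrogate variable. Of these markers 1 was higher without adropin mouse 2_4, 3_3, 4_1 or 4_3 or saline mouse 8_3. In those fits 1.28%, 3.26%, 1.49%, 6.16% and 1.27% of all genes tested were higher. Of 4 platelet markers 2 were tested, Pf4 at -0.34 (edgeR unadjusted p = 0.231) and Itga2b at -0.03. The platelet median was -0.18, and -0.028 with 1 surrogate variable. Of 4 lymphatic markers 2 were tested, Prox1, which neural progenitors also make, at -0.28 (edgeR unadjusted p = 0.178) and Pdpn at -0.09. With 1 surrogate variable 1 lymphatic marker was lower, as were 2.43% of all genes tested.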
